A study of Mus musculus with 8 samples.

Results

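Mouse embryonic fibroblasts (MEFs) on day 3 of reprogramming held 1930 genomic regions in which Nanog, Oct4 and Sox2 each had a peak, in native form and with BiD fused to it, and in which neither form of Nr5a2 had one. The peaks of all 8 libraries were merged wherever they overlapped by 1 bp or more, which gave 306466 union regions. The 1930 regions, called members below, were chosen by the presence of a peak in each of 6 libraries (Nanog, NanogBiD, Oct4, Oct4BiD, Sox2 and Sox2BiD) and its absence in the Nr5a2 and Nr5a2BiD libraries. They made up 0.63% of the union regions and 27.0% of the 7140 regions with peaks in all 6 libraries. Of the other regions with those 6 libraries, 4572 had peaks of both Nr5a2 forms, 297 of native Nr5a2 alone and 341 of Nr5a2BiD alone.

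Nanog, Oct4 and Sox2 are DNA-binding transcription factors that together hold embryonic stem cells in the pluripotent state. Oct4, a POU protein, recognises the octamer, Sox2 recognises a SOX motif with its HMG domain, and Nanog is a homeodomain protein. In embryonic stem cells Oct4 and Sox2 often bind side by side on a joint element. Nr5a2 is an orphan nuclear receptor that binds as a monomer to an extended AAGGTCA-like site and can take the place of Oct4 in reprogramming. MEFs, a connective tissue cell, use other factors at their enhancers, among them AP-1 (Fos and Jun dimers), TEAD, which carries the Hippo pathway coactivators Yap and Taz, and RUNX.

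Each library came from CUT&Tag, in which an antibody directs the Tn5 transposase to its target on chromatin, here the Flag tag of the delivered factor. BiD is an N-terminal stretch of SS18, a BAF complex subunit, through which SS18 holds on to the remodeller BRG1, and was placed at the N-terminus of each factor. Per the study's methods, the MEFs came from embryos of OG2 males, which carry an Oct4-GFP reporter, crossed with 129 females, and factors were delivered by retrovirus to the bulk culture. Each of the 8 groups (4 factors, native or BiD) held 1 library, its title does not give the factors delivered alongside, and the identity of the MEFs cannot be checked in lists of peaks. The native libraries are the reference for the BiD libraries, and no library without a Flag-tagged factor was analysed here. No value has a replicate, so no test between conditions was made. The intervals of shares are exact 95% intervals. Those of ratios between motif shares are approximate 95% intervals that treat the counts compared as independent. Both cover counting error over regions and not the spread between cultures.

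The sequences that carry the motif results are shown first, as 101 bp of the + strand of GRCm38 (the assembly behind mm10) centred on the median summit, which is the median position of the summits of a region. A member is named after the protein-coding gene with the nearest start site, which says nothing of its target. Capitals mark exact matches of a motif on either strand. The motifs were ATGCAAAT (octamer), CCATTGTT (SOX), GCCATTA (NANOG), CAAGGTCA or CAAGGCCA (NR5A), TGACTCA (AP-1), CATTCCA or CATTCCT (TEAD), AACCACA (RUNX) and the joint OCT4-SOX2 element. The octamer lies within the joint element. The first 4 sequences hold the octamer. They are the strongest members with it by the lowest of the 6 within-library score percentiles (Gm17555 and Lrriq3), the strongest with AP-1 after Lrriq3 (Rarb), and the 1 member with the joint OCT4-SOX2 element (Galnt17). Apart from Galnt17 and the 12 strongest members, the examples of a motif or of a short summit span were picked after their values were seen.
Gm17555 (chr2:126310191-126310291): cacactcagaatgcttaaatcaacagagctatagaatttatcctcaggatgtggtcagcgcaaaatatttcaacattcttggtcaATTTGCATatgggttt
Lrriq3 (chr3:155723774-155723874): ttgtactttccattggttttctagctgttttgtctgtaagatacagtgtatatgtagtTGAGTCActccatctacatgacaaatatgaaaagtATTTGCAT
Rarb (chr14:16957965-16958065): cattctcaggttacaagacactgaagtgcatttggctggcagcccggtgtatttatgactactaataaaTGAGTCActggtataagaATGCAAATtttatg
Galnt17 (chr5:131177301-131177401): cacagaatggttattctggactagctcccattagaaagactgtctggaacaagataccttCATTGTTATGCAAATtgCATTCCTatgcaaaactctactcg

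The next 3 are members in which AP-1, TEAD and RUNX matches fell together within 50 bp of the median summit. The sequence near Phex holds 2 AP-1 matches. The 6 summits spanned 1609 bp near Tbccd1, 80 bp near Phex and 842 bp near Thsd4.
Tbccd1 (chr16:22839575-22839675): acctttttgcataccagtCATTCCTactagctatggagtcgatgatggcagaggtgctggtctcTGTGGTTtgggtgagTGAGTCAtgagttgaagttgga
Phex (chrX:157029070-157029170): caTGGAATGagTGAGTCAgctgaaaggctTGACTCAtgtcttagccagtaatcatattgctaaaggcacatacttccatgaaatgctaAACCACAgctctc
Thsd4 (chr9:60152279-60152379): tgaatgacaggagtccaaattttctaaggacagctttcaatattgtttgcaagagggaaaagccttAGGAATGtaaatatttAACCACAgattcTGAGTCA

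A further 4 show the strongest member with AP-1 and no octamer (Fnip1), with RUNX (Atp6ap1l), with SOX (Kcmf1), and the strongest with NANOG that is printed here (Klf6).
Fnip1 (chr11:54492320-54492420): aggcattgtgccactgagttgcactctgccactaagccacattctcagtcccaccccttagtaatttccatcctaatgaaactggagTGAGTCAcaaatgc
Atp6ap1l (chr13:90546761-90546861): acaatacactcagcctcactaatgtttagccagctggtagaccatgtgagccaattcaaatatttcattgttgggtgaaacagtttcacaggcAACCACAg
Kcmf1 (chr6:72883170-72883270): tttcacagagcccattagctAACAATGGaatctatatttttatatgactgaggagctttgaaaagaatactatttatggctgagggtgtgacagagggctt
Klf6 (chr13:5248817-5248917): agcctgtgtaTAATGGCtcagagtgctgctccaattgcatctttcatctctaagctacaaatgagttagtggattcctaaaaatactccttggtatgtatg

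The last 3 are the members whose 6 summits lay closest together. The summits spanned 3 bp near Skap2, 4 bp near Stard13 and 7 bp near Slc24a3. The Stard13 sequence holds a RUNX match, and the others hold none of the marked motifs.
Skap2 (chr6:51910716-51910816): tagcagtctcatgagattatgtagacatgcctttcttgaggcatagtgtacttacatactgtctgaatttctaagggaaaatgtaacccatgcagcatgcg
Stard13 (chr5:151251866-151251966): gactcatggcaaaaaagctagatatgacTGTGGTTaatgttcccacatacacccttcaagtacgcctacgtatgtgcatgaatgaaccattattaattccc
Slc24a3 (chr2:145338691-145338791): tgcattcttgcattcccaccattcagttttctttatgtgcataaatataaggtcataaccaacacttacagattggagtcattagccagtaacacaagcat

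The motifs of somatic factors were more frequent at the centre of members than the motifs of the delivered factors. An AP-1 match lay within 50 bp of the median summit of 231 members (11.97%, 10.6 to 13.5), against a mean of 2.12% in equal windows whose centres lay 500 bp upstream and downstream (the flanks), a ratio of 5.63 (4.38 to 7.25). TEAD matches were found in as many members, 231, over a flank share of 4.51% (ratio 2.66). RUNX matches were found in 158 members (8.19%, 7.002 to 9.50) over a flank share of 2.15% (ratio 3.81). By contrast, the octamer was present in 48 members (2.49%, 1.84 to 3.28), the NANOG motif in 30 (1.55%, 1.05 to 2.21), the SOX motif in 16 (0.83%, 0.47 to 1.34) and the joint element in 1. The octamer was nevertheless more frequent than in its flanks (0.78%), with a ratio of 3.20 (2.03 to 5.05). For the NANOG and SOX motifs the intervals of the ratio to the flanks, 0.93 to 2.41 and 0.95 to 3.73, included 1. Motif frequencies cannot be read against each other as binding, because the motifs differ in length and base composition.

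The motifs rarely coincided. At least 1 of AP-1, TEAD and RUNX was present in 553 members (28.7%), 2 of them in 59 and all 3 in 4. At least 1 of the octamer, SOX and NANOG motifs was present in 94 members (4.87%), and no member held more than 1 of them. AP-1 stood together with 1 of these in 16 members, which include the Lrriq3 and Rarb sequences above. None of the 6 motifs lay within 50 bp of the median summit in 1316 members (68.2%), so most members were not described by these words.

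Compared with regions outside promoters, the members were placed as follows. A distal region is one whose median summit lay over 2 kb from any annotated transcription start site. Among 1698 distal members, 12.01% (10.5 to 13.7) held AP-1, against 6.79% (6.69 to 6.88) of 261173 distal union regions, 13.8% (12.1 to 15.6) of 1497 distal regions with all 8 libraries and 19.1% (17.1 to 21.2) of 1414 distal regions with the 6 Nanog, Sox2 and Nr5a2 libraries and no Oct4. The AP-1 intervals of members and all-8 regions overlap, and the members' share was below the interval of the regions without Oct4. RUNX was present in 8.13% (6.87 to 9.53) of distal members, 5.61% (4.50 to 6.90) of distal all-8 regions and 4.45% (4.37 to 4.53) of distal union regions. For RUNX the intervals of members and all-8 regions overlap in a narrow range. The RUNX share was 6.44% (5.21 to 7.84) in the distal regions without Oct4. It was 5.48% (3.70 to 7.78) in those built likewise without Sox2 and 1.74% (0.36 to 5.01) without Nanog. The interval without Nanog lies wholly below that of members, while those without Oct4 and without Sox2 overlap it. TEAD was present in 12.1% of distal members, near the 12.4% of all-8 regions, 11.7% without Oct4 and 11.5% without Sox2. Its share was 6.40% without Nanog and 7.47% over distal union regions. The octamer share of distal members, 2.18% (1.54 to 2.99), was near the 1.87% (1.25 to 2.69) of all-8 regions and the 2.70% (2.64 to 2.76) of union regions.

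The NR5A motif was nearly missing. It lay within 50 bp of the median summit of 4 members (0.21%, 0.06 to 0.53), fewer than in their flanks (1.11%). Over all union regions its share was 5.28%, over regions without Oct4 3.76% and over all-8 regions 1.51%. Members were selected on the absence of Nr5a2 peaks, so this share is a description of the selection and not a separate result.

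**Figure D1:**
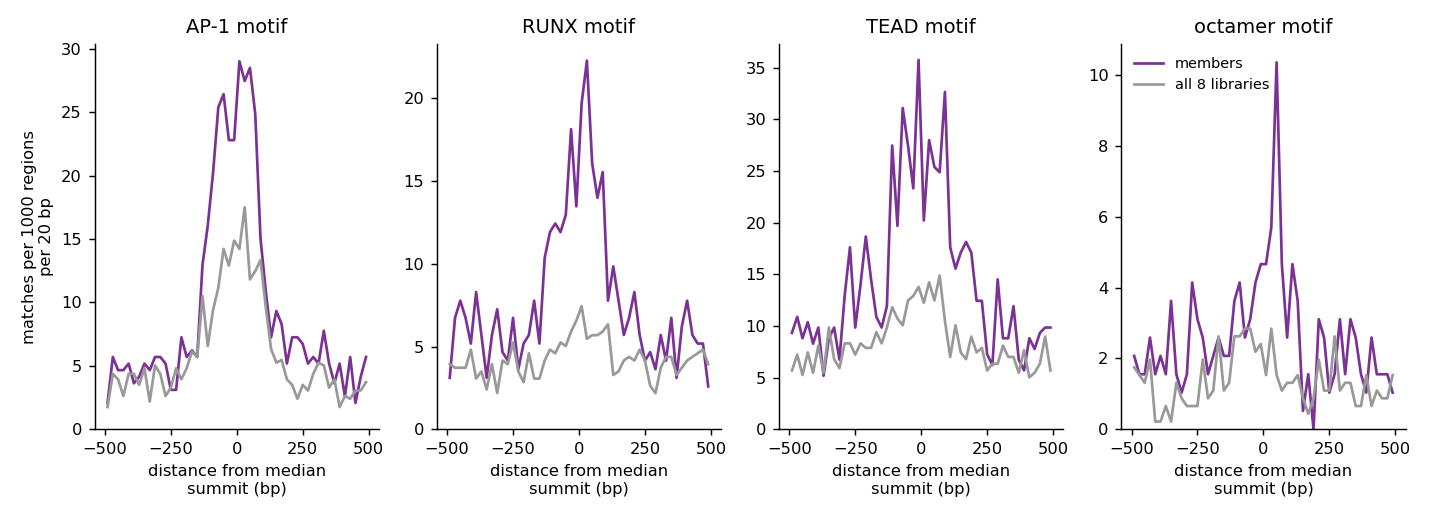
Matches of 4 motifs per 1000 regions in bins of 20 bp (vertical axis, a separate scale in each panel) by distance from the median summit in bp (horizontal axis), for the 1930 members (purple) and the 4572 regions with all 8 libraries (grey; 1 region off the placed chromosomes is not drawn). AP-1, RUNX and TEAD matches of members rise over about 100 bp on either side of the summit; the octamer line rests on 48 members within 50 bp and is uneven.

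The motif of a delivered factor was most frequent at the summit of that factor's own peak. Within 50 bp of the Oct4BiD summit, 111 members (5.75%, 4.75 to 6.88) held an octamer, and 83 (4.30%, 3.44 to 5.30) did so at the native Oct4 summit. At the Nanog, NanogBiD, Sox2 and Sox2BiD summits of the same members the share ran from 1.35% to 1.71%. The ratio to the flanks was 8.88 (5.75 to 13.7) for Oct4BiD and 4.74 (3.20 to 7.04) for native Oct4. The SOX motif followed the same order. It lay at 33 native Sox2 summits (1.71%, 1.18 to 2.39) and 31 Sox2BiD summits (1.61%, 1.09 to 2.27), with ratios to the flanks of 4.40 and 4.13, and at 0.67% of native Nanog, 0.83% of NanogBiD, 0.36% of native Oct4 and 0.41% of Oct4BiD summits. The intervals of the Nanog libraries (0.36 to 1.15 and 0.47 to 1.34) overlap that of Sox2BiD. The NANOG motif lay at 33 native Nanog and 35 NanogBiD summits (1.71% and 1.81%, ratios 2.44 and 2.33), and at 23 to 30 summits of the other libraries, a range that the intervals do not separate. AP-1 was frequent at the summits of all 6 libraries. Its share was 11.7% at Nanog, 10.8% at NanogBiD, 10.3% at Oct4, 8.81% at Oct4BiD, 11.7% at Sox2 and 11.9% at Sox2BiD summits. The AP-1 ratio to the flanks was 3.95 (3.05 to 5.12) at Oct4BiD summits, below the 8.88 of the octamer there. At the other libraries the AP-1 ratio ran from 4.91 (native Oct4) to 8.33 (native Nanog).

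**Figure D2:**
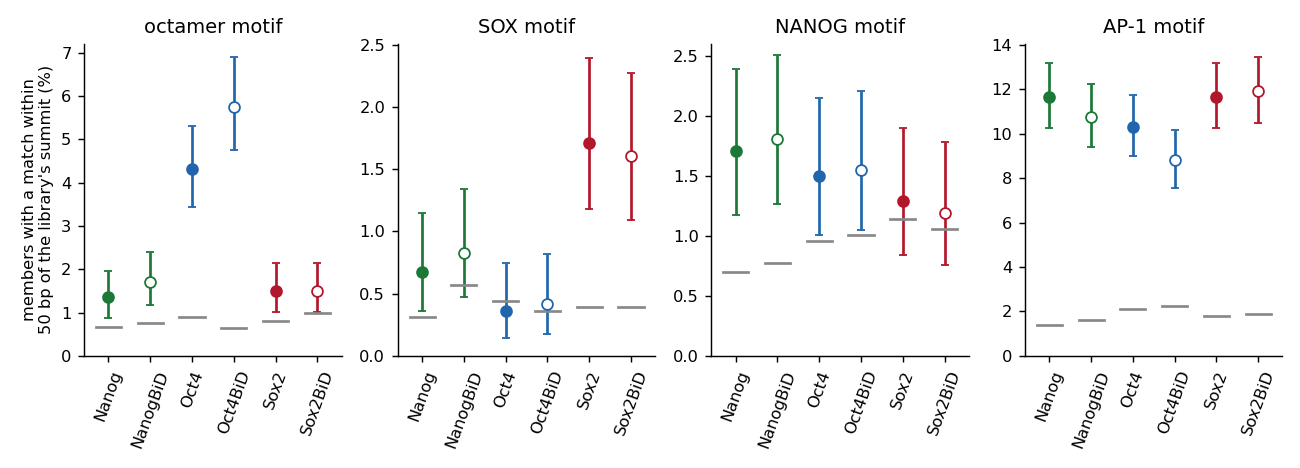
Share of the 1930 members with a motif match within 50 bp of each library's own summit (percent; a separate scale in each panel), with exact 95% intervals over regions, for native (filled) and BiD (open) libraries of Nanog (green), Oct4 (blue) and Sox2 (red). Grey bars give the mean share in the flanks. The octamer is highest at the 2 Oct4 libraries (4.30% and 5.75%) and SOX at the 2 Sox2 libraries (1.71% and 1.61%), while AP-1 lies between 8.81% and 11.9% in all 6.

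Summits of different factors in a member did not coincide as closely as those of native and BiD forms. The median distance between the summits of native and BiD libraries of a factor was 47.5 bp for Nanog, 52 bp for Oct4 and 46 bp for Sox2. For the 12 pairs of libraries of different factors it ran from 87 bp (native Nanog and native Sox2) to 186 bp (Oct4BiD and Sox2BiD). In the all-8 regions the 12 pairs ran from 73 to 104.5 bp and the pairs of forms from 48 to 53 bp, and the 4 pairs of an Oct4 with a Sox2 library, at 130 to 186 bp in members, ran from 96 to 104.5 bp there. Over all union regions with both peaks these 4 pairs ran from 125 to 193 bp, so the spacing in members was close to that of regions in general. The 6 summits of a member spanned a median of 383.5 bp. They fell within 100 bp in 187 members (9.69%) and over more than 500 bp in 815 (42.2%). AP-1 matches were present in 38 of the 187 closely spaced members (20.3%, 14.8 to 26.8) and in 193 of the other 1743 (11.1%, 9.64 to 12.6), and the intervals do not overlap. The position of the window itself depends on the spread of the summits, and its part in this difference was not tested.

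Heights followed the factor and not the region. Across members, the Spearman correlation of summit heights (tags at the highest point of a peak) between native and BiD forms was 0.75 for Nanog, 0.55 for Oct4 and 0.68 for Sox2. Between libraries of different factors it ran from 0.011 to 0.160. In the all-8 regions the corresponding values were 0.65 to 0.80 and 0.088 to 0.385. Over all union regions with both peaks they were 0.47 to 0.65 and 0.002 to 0.282. The range for different factors there contains that of members, so low values between factors were not particular to members. These correlations are over regions, which are not replicates. The points share a library in each pair, and members were selected on a peak in every library.

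**Figure D3:**
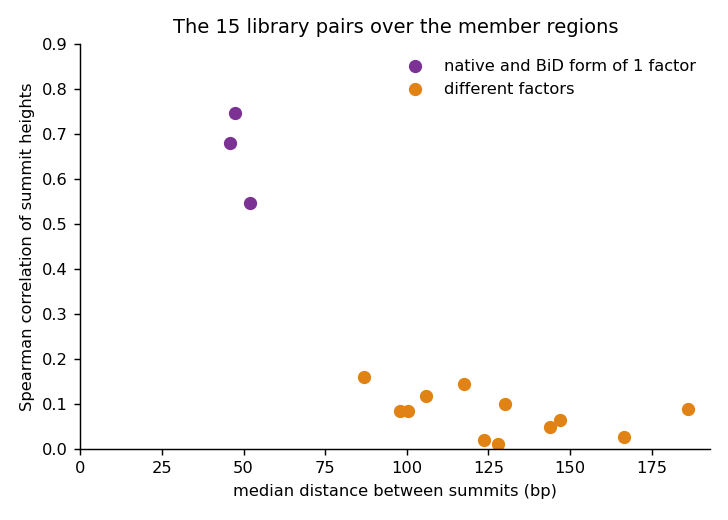
The 15 pairs of the 6 libraries by the median distance between their summits in the 1930 members (horizontal axis, bp) and the Spearman correlation of their summit heights (vertical axis). The 3 pairs of native and BiD forms of a factor (purple) lie at 46 to 52 bp and 0.55 to 0.75; the 12 pairs of different factors (orange) lie at 87 bp or more and at 0.160 or less.

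Members were moderately strong peaks in each list. The height ranged from 7 to 102 tags for Nanog with a median of 27, from 8 to 104 for NanogBiD with a median of 28, and from 9 to 105 for Oct4 with a median of 21. It ranged from 8 to 96 for Oct4BiD (median 26), from 11 to 104 for Sox2 (median 27) and from 9 to 95 for Sox2BiD (median 34). The medians of all peaks of these lists were 16, 20, 17, 19, 22 and 21 tags in the same order. The members' median was higher in all 6. Members were selected on a peak in every library and keep its highest-scoring peak, and the part of this in the difference was not tested. In all-8 regions the medians were 31, 37, 21, 35, 21 and 34 tags, so members were not higher than these in general. Heights are not scaled to depth, and the lists do not give the depth of the libraries. Where libraries are ordered by height at a member, here and below, the order is therefore one of unscaled tags. Within its own list, the median score of members stood at the percentiles 79.9, 73.6, 70.7, 71.1, 69.0 and 78.9. All 6 peaks were above the median of their list in 525 members (27.2%) and in the top 10% of it in 19. The weakest peak by percentile was that of native Sox2 in 459 members, native Oct4 in 397 and Oct4BiD in 389.

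**Figure D4:**
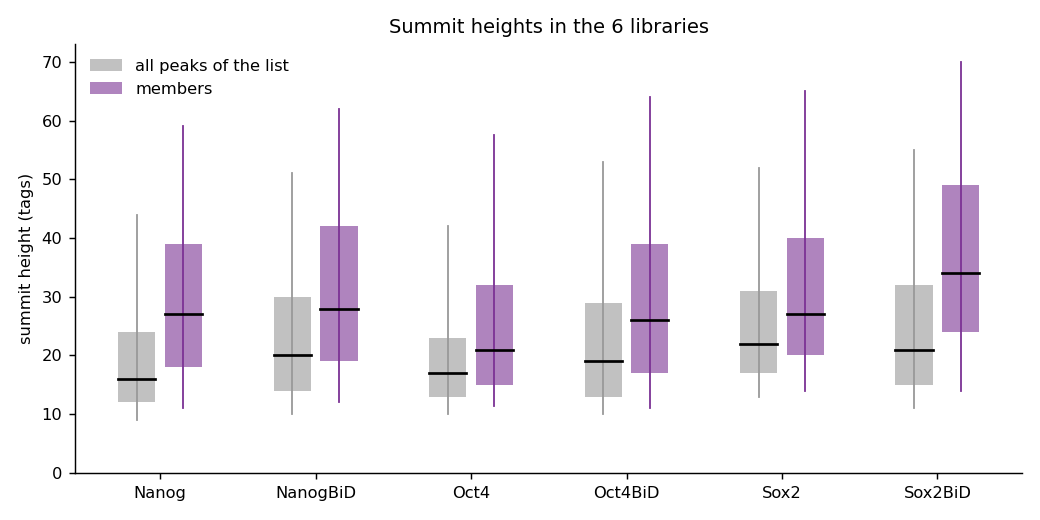
Summit heights in tags (vertical axis from 0) in the 6 libraries for all peaks of the list (grey) and for the 1930 members (purple). Boxes span the first to the third quartile, black bars are medians and lines run from the 5th to the 95th percentile; the members' medians, 21 to 34 tags, lie above those of all peaks, 16 to 22 tags, in each library.

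The strongest member lay 95.1 kb from the start of Gm17555, between genes (chr2:126308975-126312023). Its heights were 73 tags for Nanog, 70 for NanogBiD, 77 for Oct4, 77 for Oct4BiD, 78 for Sox2 and 70 for Sox2BiD, each at or above the 99.3rd percentile of scores in its list. The heights were level across the 6 libraries, and the nearest Nr5a2 peak lay 4.27 kb away. The next member lay in an intron of Calu, which encodes the calcium-binding protein calumenin, 1.57 kb from the start (chr6:29362013-29363885), with 46 and 52 tags for the Nanog forms, 67 and 58 for the Oct4 forms and 71 and 75 for the Sox2 forms. The member in an intron of Arhgap24 (chr5:102628003-102630686) had the most tags for Nanog, 102 for each form. Oct4 had 93 tags, Oct4BiD 67, Sox2 39 and Sox2BiD 45. By score the order differed, with 1086 for NanogBiD, 977 for native Oct4 and 889 for native Nanog. The Slc24a3 member, in an intron of this sodium-potassium-calcium exchanger gene (chr2:145337929-145339460), had 55 and 60 tags for Nanog, 57 and 43 for Oct4 and 37 and 42 for Sox2, with the 6 summits within 7 bp. The Galnt17 member with the joint element (chr5:131176665-131178950), in an intron, had 14 and 27 tags for Nanog, 56 and 79 for Oct4 and 34 and 35 for Sox2. There the Oct4 forms were the highest and native Nanog the lowest.

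The choice of members rests on a threshold of the peak caller. The deposited score is 10 times the negative log10 of its p-value, and the lowest score in a list is 50. The lowest of the 6 scores was under 55 in 193 members (10%). The 5 members closest to the threshold had lowest scores of 50.01 to 50.15. On the other side, 85 of the 5210 regions that had the 6 libraries and also Nr5a2 carried a highest Nr5a2 score under 55, starting at 50.05. A further 3009 regions without Nr5a2 had 5 of the 6 libraries. The one missing was native Oct4 in 907 and native Sox2 in 885, the lists with the fewest peaks (54794 and 58162). The median score of the Nr5a2 peak was 77.4 in the 297 regions with native Nr5a2 alone and 77.3 in the 341 with Nr5a2BiD alone.

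Members lay mainly away from promoters. The median summit of 232 members (12.02%, 10.6 to 13.6) was within 2 kb of an annotated start site, against 14.8% of all union regions. With all 8 libraries the share was 67.2% (65.9 to 68.6). Among the regions with the 6 libraries it was 17.0% (13.2 to 21.4) where Nr5a2BiD alone was added and 33.0% (27.7 to 38.7) where native Nr5a2 alone was. The other classes built the same way gave 12.9% without Oct4 (1624 regions), 14.0% without Nanog (200 regions) and 40.2% without Sox2 (884 regions). The intervals of the members and of the classes without Oct4 (11.3 to 14.7) and without Nanog (9.51 to 19.6) overlap. The median distance from a start site was 15.9 kb, and 40.4 kb from a start site of a protein-coding gene.

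By annotation, 1012 members (52.4%) lay in introns, 835 (43.3%) between genes, 45 in exons of noncoding genes or transcripts, 30 in UTR exons and 8 in coding exons. The median G+C content of the 501 bp around the summit was 41.7% (quartiles 38.7 and 45.1), against 57.3% in all-8 regions and 43.3% in all union regions. The median number of CpG dinucleotides in this window was 4 in members and 27 in all-8 regions. Lower-case (repeat-masked) sequence made up 14.1% of the window on average, against 19.4% over all union regions and 8.45% over all-8 regions. The 232 promoter members also had a low G+C content (median 43.9%, median of 5 CpG). The median width of a member was 1910.5 bp, and 2536.5 bp in all-8 regions, which are merged from more peaks.

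The nearest peak of either Nr5a2 form lay a median of 5.30 kb from the member (quartiles 1.94 and 14.4 kb), and within 1 kb in 276 members (14.3%). In the classes without Oct4, Sox2 and Nanog, the nearest peak of the missing factor lay at a median of 4.52, 3.40 and 4.99 kb. These medians depend on the number of peaks of the missing factor, 184247 for Nr5a2, 148772 for Oct4, 178756 for Sox2 and 149234 for Nanog. In 24 members the nearest Nr5a2 peak was over 100 kb away. The farthest, 383 kb, was a member between genes 408 kb upstream of Nudt12 (chr17:59420753-59422048), with 11 and 10 tags for Nanog, 18 and 11 for Oct4 and 55 and 36 for Sox2. A second member at 239 kb, nearest Mettl4 (chr17:94000937-94003463), had 22 and 34, 61 and 55, and 70 and 73 tags for the native and BiD forms of Nanog, Oct4 and Sox2. At both, the Sox2 forms were the highest. The member nearest Nup35 (chr2:81199771-81201087), 214 kb from Nr5a2, held an AP-1 match and had 32 and 21, 15 and 16, and 21 and 13 tags.

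The count of list genes with a member nearby was set against that of all genes. Of 21924 protein-coding genes, 12.4% had a member within 100 kb of a start site and 0.59% within 2 kb. Over 11 lists of genes chosen with knowledge of these data, 45 of 189 genes (23.8%) did so within 100 kb and 7 within 2 kb. For the extracellular matrix the count was 10 of 25 (Col1a1, Col1a2, Dcn, Fbn1, Loxl1, Lum, Postn, Thbs1, Thbs2 and Timp3), for the TEAD and Hippo list 7 of 18, for the actin cytoskeleton 6 of 14, for the cell cycle 5 of 11, for mesenchymal genes 4 of 15, and for pluripotency genes 6 of 34. AP-1 genes gave 3 of 14, TGF-beta and BMP genes 3 of 22 and RUNX genes 1 of 4. None of 15 epithelial genes and none of 17 BAF complex genes had a member within 100 kb, with exact intervals reaching 21.8% and 19.5%. The lists are short, neighbouring genes can share a member, and the gene density around members was not matched.

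Members at the starts of matrix and mesenchymal genes had peaks in all 6 libraries at different heights. At Acta2, smooth muscle actin, the median summit lay 231 bp downstream of the start in a UTR exon (chr19:34253844-34257924), with 50 and 65 tags for the Nanog forms, 88 and 66 for Oct4 and 39 and 54 for Sox2. At Thbs2, a matrix glycoprotein, it lay 72 bp upstream (chr17:14692768-14695107), with 30 and 42, 26 and 50, and 34 and 49 tags. At all 3 factors the BiD form of the Thbs2 peak was the higher. At Dcn, the proteoglycan decorin, it lay 77 bp upstream (chr10:97477858-97480785), with 52 and 60, 21 and 51, and 33 and 34 tags. The Col1a2 member, with its median summit 13 bp upstream of an annotated start of this collagen chain gene (chr6:4504201-4508116), had 36 and 50, 18 and 31, and 20 and 31 tags. Its 6 summits spanned 2169 bp, so they were not all close to the start. In unscaled tags, the Acta2 peak was highest for native Oct4, and the Dcn and Col1a2 peaks for NanogBiD. By score, the Acta2 peak was highest for Oct4BiD (1013, against 907 for native Oct4). The Col1a2 peak was again highest for NanogBiD (403), and the Dcn peak was nearly level for NanogBiD (338) and Oct4BiD (335). At S100a4, a calcium-binding protein of motile fibroblasts, the median summit lay 256 bp upstream (chr3:90603220-90606800), with 36 and 36, 16 and 17, and 14 and 30 tags. The 6 summits there spanned 2401 bp, so the median need not lie near the summit of any library. The sequence below holds a RUNX match next to the median summit, given in capitals.
S100a4 (chr3:90604605-90604705): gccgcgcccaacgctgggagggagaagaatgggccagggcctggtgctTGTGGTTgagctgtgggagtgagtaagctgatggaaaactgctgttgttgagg

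Hippo pathway genes were represented by Yap1, the coactivator of TEAD, by Tead1 itself and by Ccn2, a secreted protein that TEAD and Yap induce. The Yap1 member lay 1.70 kb upstream of a start site in an intron (chr9:7966714-7969195), with 14 and 18 tags for Nanog, 17 and 26 for Oct4 and 17 and 23 for Sox2. Its 6 summits spanned 1384 bp. The Ccn2 member lay 14.2 kb upstream (chr10:24580710-24581835), with 13 and 15, 15 and 12, and 20 and 32 tags. The Tead1 member lay 11.5 kb downstream of a start in an intron (chr7:112769780-112771948), with 15 and 24, 12 and 17, and 38 and 55 tags. All 3 held a TEAD match within 50 bp of the median summit, shown in capitals for the first pair, and the heights of all 3 for Nanog and Oct4 were at or below the members' median of each library. The remaining genes of this list with a member within 100 kb were Amotl2, Ankrd1, Tead4 and Vgll3.
Yap1 (chr9:7967471-7967571): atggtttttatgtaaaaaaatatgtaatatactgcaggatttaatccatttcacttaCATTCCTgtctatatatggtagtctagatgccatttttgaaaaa
Ccn2 (chr10:24581213-24581313): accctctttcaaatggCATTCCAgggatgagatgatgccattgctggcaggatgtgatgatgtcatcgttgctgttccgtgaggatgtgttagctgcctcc

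Among pluripotency genes, Nanog, Klf4, Dppa3, Lefty1, Lefty2 and Stat3 had a member within 100 kb of a start site. These 6 of 34 genes (17.6%, 6.76 to 34.5) have an interval that includes the 12.4% of all protein-coding genes. Within 20 kb the count was 2, and within 2 kb it was 0. The Nanog member lay between genes 4.82 kb upstream of the start (chr6:122701802-122704570), with 29 and 55 tags for the Nanog forms, 18 and 20 for Oct4 and 28 and 49 for Sox2. In unscaled tags the BiD library was higher for all 3 factors. For Oct4 the log2 ratio of 0.15 was below the median of 0.43 over all regions with both Oct4 peaks. The 6 summits of the Nanog member spanned 1323 bp. The sequence below, at their median, holds a TEAD match and none of the octamer, SOX and NANOG motifs. The Klf4 member, 30.9 kb upstream of this Krüppel-like factor gene (chr4:55562965-55564704), had 11 and 14, 12 and 46, and 21 and 26 tags, with Oct4BiD well above the others. The member nearest Lefty2, a Nodal antagonist, lay 19.6 kb from it (chr1:180913458-180914692) with 33 and 39, 21 and 23, and 21 and 35 tags.
Nanog (chr6:122702621-122702721): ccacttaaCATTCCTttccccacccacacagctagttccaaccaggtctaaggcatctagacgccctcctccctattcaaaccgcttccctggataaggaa

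Near genes of other regulators, the factor with the highest peak varied. The member 26.0 kb from Jun, an AP-1 subunit (chr4:95025673-95026978), had 24 and 14 tags for the Nanog forms, 14 and 13 for Oct4 and 47 and 42 for Sox2. At Bach2, a repressor that binds related sites (chr4:32404896-32406573), the Nanog forms were the highest, with 70 and 60 tags against 15 and 11 for Oct4 and 16 and 23 for Sox2. An intron of Runx2, the osteoblast RUNX factor, held a member (chr17:44766721-44769115) with 32 and 24, 60 and 69, and 37 and 58 tags, in which Oct4 was highest. The member 10.5 kb from a start of Prrx1, a mesenchymal homeobox gene (chr1:163298506-163300412), had 34 and 68, 40 and 28, and 15 and 22 tags. Near Myc (41.1 kb, chr15:62028031-62029056) the heights were 21 and 28, 12 and 15, and 14 and 13 tags.

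Members were scattered. They were nearest to 1474 protein-coding genes, 1159 of which had 1 member and 88 had 3 or more. Zfp608, a zinc finger gene, had the most (9), followed by Jag1, a Notch ligand, and N6amt1, a methyltransferase gene, with 6 each. These members lay 9.75 to 703 kb from Zfp608, 79.0 to 485 kb from Jag1 and 92.4 to 695 kb from N6amt1. The counts were not adjusted for the distance between neighbouring genes. In 74 clusters, 157 members (8.13%) lay within 20 kb of another member. The one cluster of 4 spanned 30.2 kb (chr2:137574333-137604511), with Jag1 as the nearest protein-coding gene.

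The heights of BiD and native peaks in members were close at the median. The median log2 ratio of BiD over native height was 0.06 for Nanog, 0.18 for Oct4 and 0.22 for Sox2 in members, and 0.25, 0.43 and 0.32 over all union regions with both peaks; relative to these all-region medians the members' values were -0.20, -0.25 and -0.10, so that their direction depends on the scaling. NanogBiD was at least 2-fold higher than native Nanog in 86 members (4.46%), against 10.2% of 52445 regions with both peaks, and at least 2-fold lower in 56 (2.90%), against 1.85%. Oct4BiD was at least 2-fold higher in 257 members (13.3%), against 20.9% of 39575 regions, and lower in 71 (3.68%), against 2.92%. Sox2BiD was at least 2-fold higher in 187 (9.69%), against 14.7% of 49469 regions, and lower in 22 (1.14%), against 2.65%. After centring on the all-region medians, 2.07% of members were at least 2-fold higher and 5.54% lower for Nanog, against 4.69% and 4.09% of all regions with both peaks. For Oct4 these shares were 3.89% and 12.9% of members against 7.29% and 8.78%, and for Sox2 2.95% and 4.77% against 5.55% and 6.55%. Members have higher peaks than all peaks of a list at the median, and the part of height in these shares was not tested. In all-8 regions the medians were 0.25, 0.68 and 0.58.

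**Figure D5:**
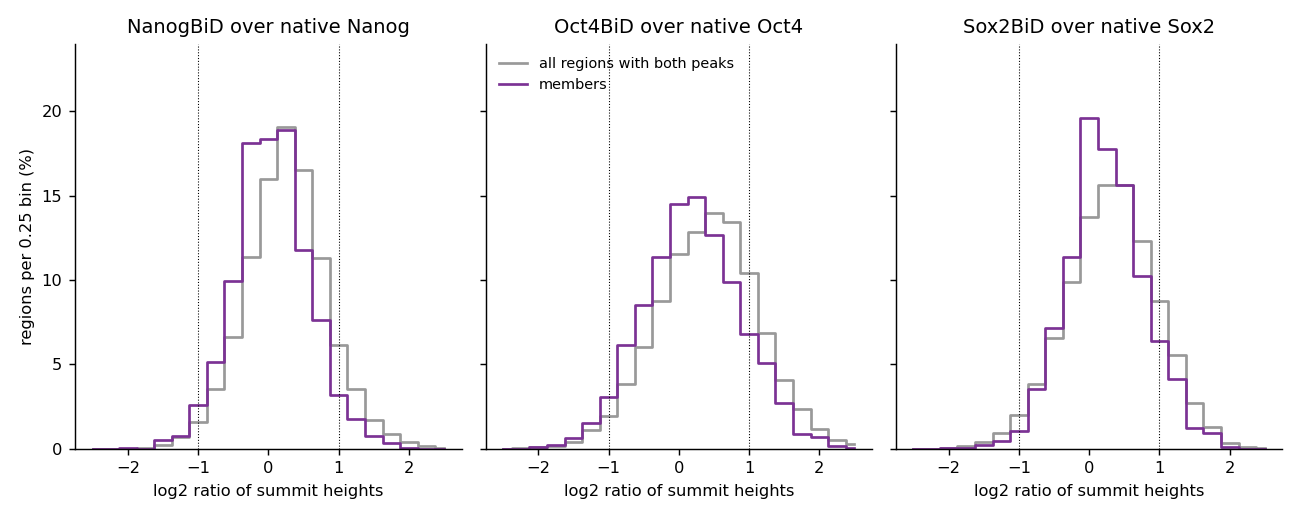
Distribution of the log2 ratio of BiD over native summit height (horizontal axis; percent of regions per 0.25 bin on the vertical axis) for Nanog, Oct4 and Sox2, in the 1930 members (purple) and in all union regions with both peaks (grey). Dotted lines mark 2-fold; the members' medians, 0.06, 0.18 and 0.22, lie to the left of the all-region medians, 0.25, 0.43 and 0.32.

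All 3 ratios were above 0 in 502 members (26.0%) and below 0 in 161 (8.34%), against 61.8% and 1.92% of all-8 regions. Over all 7140 regions with the 6 libraries, members included, the shares were 49.7% and 4.17%. The signs rest on heights not scaled to depth, and the members' medians fell below 0 after centring. At least 1 ratio reached 2-fold in either direction in 586 members (30.4%), against 39.9% of all-8 regions. All 3 were at least 2-fold higher in 1 member and in 8 of the 4572 all-8 regions. The extremes of each ratio lay in different members. The ratio was highest for Nanog near Lacc1 (chr14:76922124-76923767; 9 tags native, 37 BiD) and lowest near Nr2f1 (chr13:78602098-78603768; 38 native, 9 BiD). For Oct4 it was highest near Nipal4 (chr11:46188287-46190417; 11 native, 60 BiD), where Sox2 was also over 2-fold higher (21 native, 47 BiD), and lowest near B3galt1 (chr2:67948099-67949927; 54 native, 13 BiD). For Sox2 it was highest near Adam12 (chr7:134067740-134071080; 14 native, 53 BiD) and lowest near Trpc5os (chrX:144441950-144443341; 51 native, 13 BiD).

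The octamer accompanied a higher Oct4BiD ratio. For each factor the motif was searched at the summit of its BiD peak, whose height also enters the ratio. The part of this choice of window in the differences below was not tested. The median log2 ratio of Oct4BiD over native Oct4 was 0.73 in the 111 members with an octamer within 50 bp of the Oct4BiD summit and 0.17 in the 1819 without. Of the former, 40 (36.0%, 27.1 to 45.7) were at least 2-fold higher, and of the latter 217 (11.9%, 10.5 to 13.5). Over all union regions with both Oct4 peaks the shares were 41.4% (39.6 to 43.2) with and 19.3% (18.9 to 19.7) without the octamer, so the difference was not particular to members. For Nanog, 4 of 35 members with the NANOG motif (11.4%, 3.20 to 26.7) and 4.33% of the others were at least 2-fold higher. For Sox2, 3 of 31 members with the SOX motif (9.68%, 2.04 to 25.8) and 9.69% of the others were. These intervals overlap, and the small numbers with a motif allow a wide range. Over all union regions with both peaks the shares were 20.6% (18.3 to 23.0) with and 9.95% without the NANOG motif, and 26.2% (23.8 to 28.6) with and 14.4% without the SOX motif, so a higher share beside the factor's own motif was seen for all 3 factors there.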

How the data were processed

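Flag CUT&Tag peak lists of 8 libraries, 1 per group, were analysed. Per the labels, 100000 cells per sample were used with a pG-Tn5 kit; the study's methods name another kit and fewer cells. Per those methods the authors used Trim Galore 0.6.4 for trimming, Bowtie2 2.4.5 for alignment to mm10, SAMtools 1.16.1 for removal of repetitive, low-quality and mitochondrial reads and for merging of replicates, and MACS 1.4.2 for peak calling. Elsewhere the study states that this assay was performed once. No control library is named. The deposited score restates the MACS p-value (10 times its negative log10), with a minimum of 50. The signal deposited for each summit is its height in tags, which the authors did not scale to depth. The lists give no read totals, those stated by the study were not used here, and absence of a peak means only that the threshold of 1e-05 was not passed.

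Peaks were merged at an overlap of 1 bp, and each region kept the highest-scoring peak of each library. Regions were annotated with GENCODE M21 on GRCm38, in which no peak passed a chromosome end, and genes by the nearest protein-coding start site. Motifs were searched on both strands within 50 bp of the median summit and in flanks centred 500 bp away. Python 3.11.15, NumPy 2.4.6, pandas 2.3.3, SciPy 1.17.1, pysam 0.24.0 and matplotlib 3.10.9 were used, and the merging and motif search were checked on simulated peaks. Shares carry exact Clopper-Pearson 95% intervals. Ratios to the flanks carry approximate 95% intervals from a normal approximation on the log scale, with centre and flank counts taken as independent. Of the 11 gene lists, the older symbols of 2 genes were matched through RefSeq synonyms. Members named were the 12 with the highest lowest percentile, up to 3 nearest to genes of each list, the 4 farthest from Nr5a2, those with the joint motif or with octamer, SOX and NANOG together, members of the genes nearest to most members, and the extremes of each BiD ratio. The members, lists and motifs were chosen with earlier results of these data known. Alternatives changed the peak threshold, peak number, overlap, libraries, motif window, promoter distance, height scale and gene distance. Sequences are shown for a selection of members.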

Additional observations from a re-analysis of the deposited data

How the results depend on the processing

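No paired analysis was possible because each group has 1 library and the labels give no replicate numbers. Leaving out a replicate was not possible either, and no group had enough samples for a search for outlying samples. Of 83 recomputed values, 40 stayed within the limits set for them, 39 moved and 4 changed sign. The number of members was 1036 with scores of at least 100 in all lists (763 of the 1930 members overlapped these), 764 with that score in the 6 lists alone (763), 1203 with the 50000 highest-scoring peaks of each list (877), 884 with summit windows of 50 bp (601), 3712 with native libraries alone (1834) and 6660 with BiD libraries alone (1889). Merging across gaps of 100 bp gave 1918. Of 62 named members, 36 were kept at a score of 100, 37 among the 50000 highest peaks and 21 with summit windows. The classes without Oct4, Sox2 and Nanog held 843, 496 and 83 regions at a score of 100, 716, 1621 and 93 with the 50000 highest peaks, and 611, 460 and 57 with summit windows. Their order by size differed from the main one only with the 50000 highest peaks, where the class without Sox2 exceeded that without Oct4. The AP-1 and octamer ratios to the flanks stayed within their intervals in every setting tried. The SOX ratio was 6.50 at the summit of the strongest peak, the RUNX ratio 2.78 in windows of 100 bp, and the NR5A ratio 0.52 with the 50000 highest peaks. The promoter share was 5.39% at 500 bp, 6.63% for protein-coding starts, 14.7% at a score of 100 and 17.3% with the 50000 highest peaks. Within 20 kb, 16 of 189 list genes (8.47%) had a member, against 3.66% of all protein-coding genes. Centred on the all-region median, the median log2 ratios were -0.20 for Nanog, -0.25 for Oct4 and -0.10 for Sox2, and with scores in place of heights that of Nanog was -0.036. The share at least 2-fold higher was 2.07% (Nanog), 3.89% (Oct4) and 2.95% (Sox2) after centring, 7.25%, 24.7% and 27.1% with scores, and 1.54%, 9.17% and 7.24% at a score of 100. The share at least 2-fold lower was 5.54%, 12.9% and 4.77% after centring, 9.38%, 6.48% and 2.54% with scores, and 1.54% for Nanog at a score of 100. The causes of these shifts were not tested.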
